A study of Mus musculus with 36 samples.

Results

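The genes described here are 9 negative regulators of mitogen-activated protein (MAP) kinase signalling: the dual-specificity phosphatase genes Dusp1, Dusp2, Dusp4, Dusp5, Dusp6 and Dusp10, and the Sprouty-family genes Spry1, Spry2 and Spred1. They were taken by symbol, and each of the 9 matched exactly 1 row in each of 4 deposited expression tables. The tables list 32940 genes for sorted spleen subsets and 56923 genes each for ionomycin, antibody and tumour samples.

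MAP kinases are protein kinases that relay signals from surface receptors to the nucleus, and they are active only while phosphorylated on both a threonine and a tyrosine. Dual-specificity phosphatases remove both phosphates, and Sprouty and Spred proteins act further upstream on the Ras to ERK branch. Many of these genes are themselves switched on by MAP kinase signalling, so they form feedback loops. In natural killer (NK) cells, ERK signalling downstream of activating receptors takes part in killing and cytokine release.

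RNA from mouse NK cells was sequenced in 36 libraries, 3 in each of 12 groups. In 18 libraries, mature CD27-CD11b+ cells of the spleen had been sorted by receptors that bind MHC class I or its relatives: TP cells were positive for Ly49C, Ly49I and NKG2A, SP cells for Ly49I alone, and TN cells for none of them. They came from wild-type (WT, C57BL/6) mice and from mice without B2m (KO), the light chain that most MHC class I molecules need to reach the cell surface. All other libraries are taken as NK cells of WT mice, although the titles of the tumour samples do not state the genotype of the host. In 1 set, splenocytes were exposed for 22 h to ionomycin, which lets calcium into cells, or to its vehicle, and NK cells were then purified; no concentration is given in the sources used here. In another, splenic NK cells spent 48 h in medium alone or on antibodies fixed to the plate, against the activating receptors NKp46 plus NKG2D or NKp46 plus DNAM-1. The last 3 libraries came from CD27-CD11b+ NK cells of subcutaneous tumours, 10 days after mice were injected with 4000000 MC38 cells (a mouse colon carcinoma line) that lack B2m.

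Values are TPM, reads per gene length scaled to a common total per library, so sequencing depth is unknown. The genes listed for the sorted subsets summed to 934292 to 948786 TPM per library, against 1e+06 TPM in each other set. Between 12290 and 18096 genes were above 0 per library. A gene was tested where its mean over a table reached 1 TPM, and it was called where limma gave an adjusted p under 0.05 on log2(TPM + 1) values. Fold differences quoted on that scale understate those of genes at low levels. B2m was at 73.9 to 128 TPM in the 9 KO libraries and at 2915 to 3420 TPM in the 9 WT subset libraries. The NK gene Ncr1, which encodes NKp46, was between 1607 and 2416 TPM in all 18 subset libraries. In the antibody set, the sample title and the table column named for the sample disagreed on the group for 6 of 9 libraries, and the column names were followed. The tumour columns carry the terms B2MKO and SP, which the titles of those samples do not explain. The labels call replicates biological and the columns number them (WT1, KO1), which reads as 1 mouse per number, but no label states it.

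The upstream sequences of 5 members are shown because those genes carried the called differences (Dusp2, Spry1, Spry2) or because their window held a motif of MAP kinase-responsive or calcium-responsive factors (Dusp1, Dusp5, Spry2). Each is the stretch from 200 to 51 bases before the RefSeq start, written 5′ to 3′ on the gene's strand, in GRCm38.p6. Dusp2 is at chr2:127335959-127336108 on the plus strand, Spry2 at chr14:105896870-105897019 on the minus strand, Spry1 at chr3:37639747-37639896 on the plus strand, Dusp1 at chr17:26508523-26508672 on the minus strand and Dusp5 at chr19:53528945-53529094 on the plus strand. Capitals mark motif matches on either strand.
Dusp2: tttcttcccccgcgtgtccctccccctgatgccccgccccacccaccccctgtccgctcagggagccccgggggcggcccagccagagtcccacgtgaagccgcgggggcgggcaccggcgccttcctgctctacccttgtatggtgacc
Spry2: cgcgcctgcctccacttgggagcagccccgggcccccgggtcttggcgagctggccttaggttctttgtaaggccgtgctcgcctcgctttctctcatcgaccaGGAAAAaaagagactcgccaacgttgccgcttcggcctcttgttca
Spry1: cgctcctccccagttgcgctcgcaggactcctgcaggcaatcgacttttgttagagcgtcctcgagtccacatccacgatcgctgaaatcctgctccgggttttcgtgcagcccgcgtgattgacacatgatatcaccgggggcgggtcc
Dusp1: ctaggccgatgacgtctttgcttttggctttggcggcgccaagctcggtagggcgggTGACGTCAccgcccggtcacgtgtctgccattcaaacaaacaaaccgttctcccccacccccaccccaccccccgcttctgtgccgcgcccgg
Dusp5: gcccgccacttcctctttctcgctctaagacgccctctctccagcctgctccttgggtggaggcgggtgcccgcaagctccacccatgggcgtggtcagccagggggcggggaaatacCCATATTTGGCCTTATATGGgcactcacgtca

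Of the 9 members, 8 had a RefSeq upstream sequence, and Dusp4 had none. The cyclic AMP response element TGACGTCA was found in the Dusp1 window, 143 to 136 bases before the start, and in 0.752% of 32851 RefSeq windows of the same length. Dusp5 held a pair of adjoining CArG boxes, the motif of serum response factor, at 82 to 73 and 72 to 63 bases before the start. A CArG box was present in 0.871% of all windows. Spry2 held the NFAT core GGAAAA 96 to 91 bases before the start, as did 12.8% of all windows. The AP-1 motif TGANTCA (4.27% of windows), the EGR motif GCGTGGGCG (0.304%) and the ETS motif CCGGAAGT (1.19%) matched in none of the 8. Dusp2 and Spry1, printed above, had no match to any of the 6 motifs in these windows. The motifs do not overlap each other in the printed stretches.

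Dusp2, Spry2 and Dusp5 were the high-level members and the others sat well below them in the sorted spleen cells. Dusp2, which encodes a nuclear phosphatase found mainly in blood cells, had a mean of 288 TPM over the 18 subset libraries. Spry2 averaged 141 TPM and Dusp5, an ERK-specific nuclear phosphatase gene, 104 TPM. Dusp2 exceeded Spry2 in 18 of 18 libraries with no overlap of their ranges, while Spry2 exceeded Dusp5 in 16 of 18 with overlapping ranges. Dusp6, whose product holds ERK inactive in the cytoplasm, averaged 18.4 TPM and lay below Dusp5 in every subset library. Dusp10, a phosphatase gene for JNK and p38, averaged 9.96 TPM, Dusp1 8.81 TPM and Spred1, whose product brings the Ras-inactivating protein neurofibromin to the membrane, 6.21 TPM. The ranges of neighbours among these 3 overlapped, so their order is not resolved. Dusp4, which encodes a nuclear phosphatase, did not pass 0.59 TPM in any subset library, and Spry1 was listed at 0 in all 18. Of 15 housekeeping genes looked at, none was at 0 in any library. Over all 36 libraries, Dusp4 was above 0 in 19 and Spry1 in 5, and the other 7 members in 36. Dusp4 and Spry1 therefore fell under the mean needed for a test in the subset and antibody tables, and Dusp4 in the ionomycin table too, which left 7, 7 and 8 members tested.

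**Figure D1:**
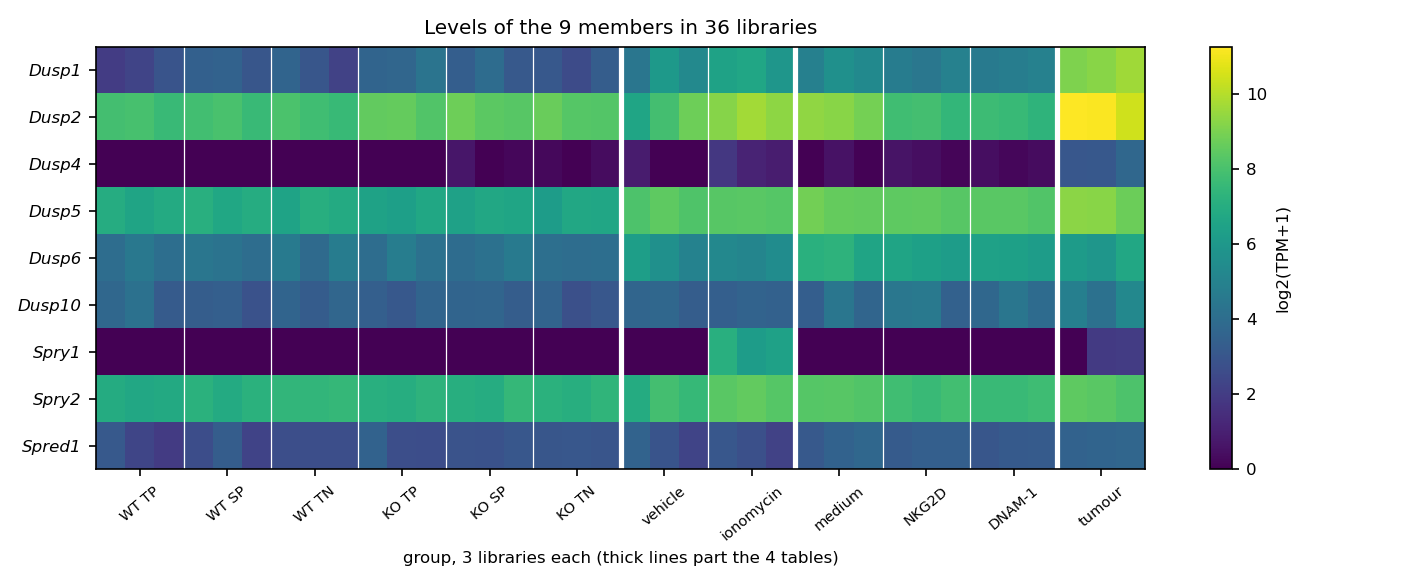
Levels of the 9 members (rows) in 36 libraries (columns, 3 per group) as log2(TPM + 1), with thick white lines between the 4 separately deposited tables. Dusp2, Dusp5 and Spry2 form the bright rows, Dusp4 and Spry1 are dark in most groups, and Spry1 is bright in the 3 ionomycin libraries.

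Loss of B2m was examined within each sorted subset. Dusp2 was the member whose KO and WT libraries stood apart in all 3 subsets, although in none of them did it pass the adjusted threshold. In TP cells Dusp2 was at 375, 382 and 288 TPM in KO and at 237, 250.1 and 198 TPM in WT libraries. In SP cells it was at 433, 339 and 322 TPM in KO and at 225, 259.6 and 195 TPM in WT. In TN cells the values were 406, 305 and 298 TPM in KO and 266, 221 and 191 TPM in WT. Every KO library was above every WT library, the lowest KO value being 288 TPM and the highest WT value 266 TPM. Dusp2 was the 1 member of 7 with such a separation of all 9 KO from all 9 WT libraries, which 1.22% of the 12018 tested genes showed in either direction. The subsets of a genotype carry the same 3 replicate numbers, which may stand for 3 mice. The 9 libraries of a genotype may therefore not be independent, and the subsets are not separate replications.

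The KO minus WT difference of Dusp2 on the log2(TPM + 1) scale was 0.60 for TP (95% interval 0.26 to 0.95, adjusted p 0.087), 0.68 for SP (0.33 to 1.03, adjusted p 0.0511) and 0.57 for TN cells (0.22 to 0.92, adjusted p 0.167). In SP cells Dusp2 passed the threshold in 3 of 14 alternative settings. These were replicate number as a block (adjusted p 0.0479), a pseudocount of 0.1 (0.0487) and tests confined to genes whose mean reached 5 TPM (0.0452). In the others it did not pass, at adjusted p up to 0.249 in limma. Dnajb1, a heat-shock gene from a list of 10 handling and stress genes, was called higher in KO cells in all 3 subsets, at 68.0 to 119 TPM against 34.2 to 54.4 TPM. The summed level of that list ran from 412 to 570 TPM in KO and from 393 to 462 TPM in WT libraries. Its part in the difference of Dusp2 was not tested. In bulk samples, fewer cells with a transcript and less of it per cell cannot be told apart.

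**Figure D2:**
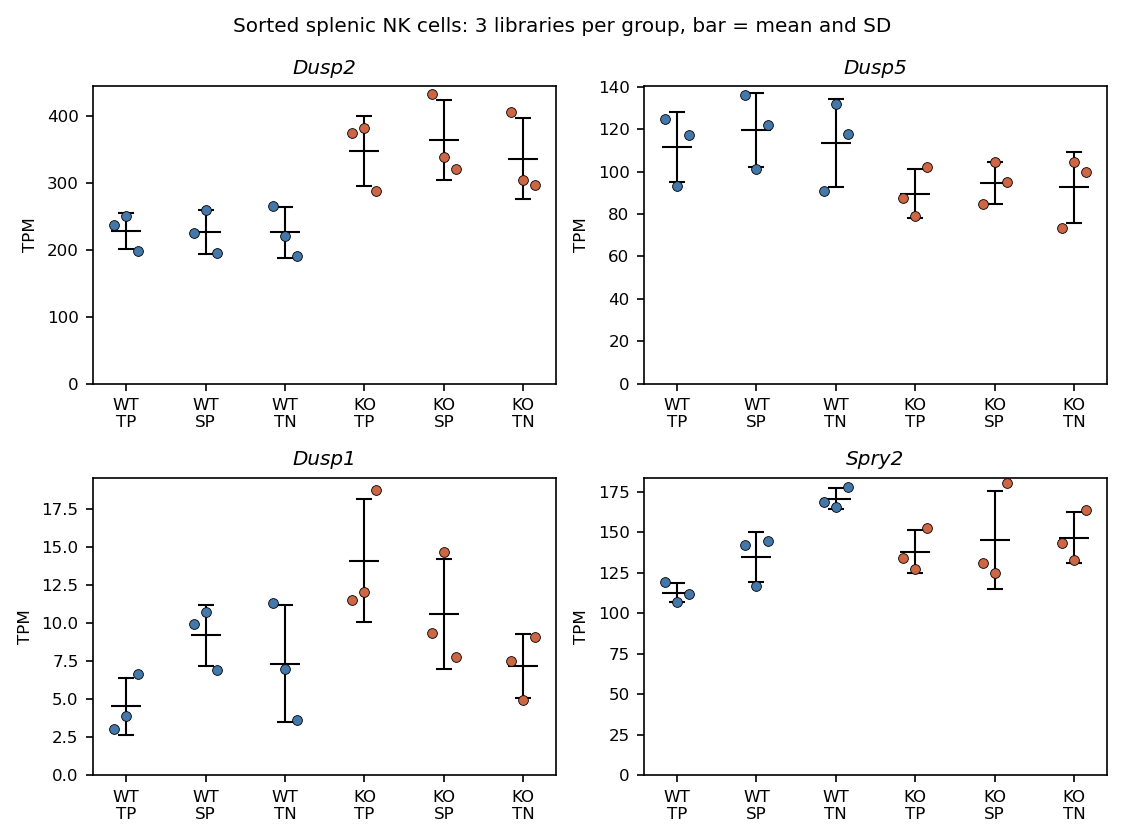
TPM of Dusp2, Dusp5, Dusp1 and Spry2 in 18 libraries of sorted splenic NK cells; each point is a library, blue for WT and orange for KO, and bars give the mean and SD of 3 libraries. All 9 KO points of Dusp2 lie above the 9 WT points, and Spry2 in WT TN cells lies above WT TP cells.

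Dusp1 encodes a nuclear phosphatase of p38, JNK and ERK and is an early-response gene. It stood at 11.5, 12.0 and 18.8 TPM in KO TP cells against 3.04, 3.87 and 6.63 TPM in WT TP cells. All KO TP libraries lay above all WT TP libraries, with a difference of 1.47 (95% interval 0.68 to 2.27, adjusted p 0.0634). No such gap was seen in SP cells, at 9.32, 14.7 and 7.79 TPM in KO and 9.94, 10.7 and 6.92 TPM in WT, or in TN cells, at 7.47, 4.93 and 9.10 TPM in KO and 11.3, 6.98 and 3.64 TPM in WT. The 3 KO TP libraries also carried transcripts of other blood cells. The summed level of 6 neutrophil genes was 61.0 to 217 TPM there, with all 6 above 0, and 0 in the 3 WT TP libraries, and 4 plasma-cell genes summed to 187 to 294 TPM against 69.9 to 93.0 TPM. S100a9, a neutrophil gene, was at 13.2, 52.3 and 95.1 TPM in KO TP cells. The part of those cells in the Dusp1 values was not tested. The annotated gene spans of Dusp1 and Ergic1 overlap on opposite strands (GENCODE M21). Strand-specific counting is not given in the sources used here, so reads from any shared stretch cannot be told apart. Ergic1 was at 30.2 to 44.9 TPM in KO TP and 27.6 to 41.9 TPM in WT TP cells.

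Dusp5 lay on the other side of 0 from Dusp2, with KO minus WT differences of -0.31, -0.33 and -0.29 in the TP, SP and TN subsets, at adjusted p from 0.476 to 0.584. Its libraries ranged from 73.5 to 105 TPM in KO and from 90.9 to 136 TPM in WT cells, so the groups overlapped. Within genotype, Dusp2 and Dusp5 ran in opposite directions across libraries, with a Pearson r of -0.62 (Spearman rho -0.50) over 9 WT and -0.84 (rho -0.77) over 9 KO libraries. Without the 2 libraries farthest from the median of Dusp2, r was -0.54 and -0.81. These are descriptions of libraries that may share mice and batches of sorting, and they were the lowest r of 21 member pairs in both genotypes.

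**Figure D3:**
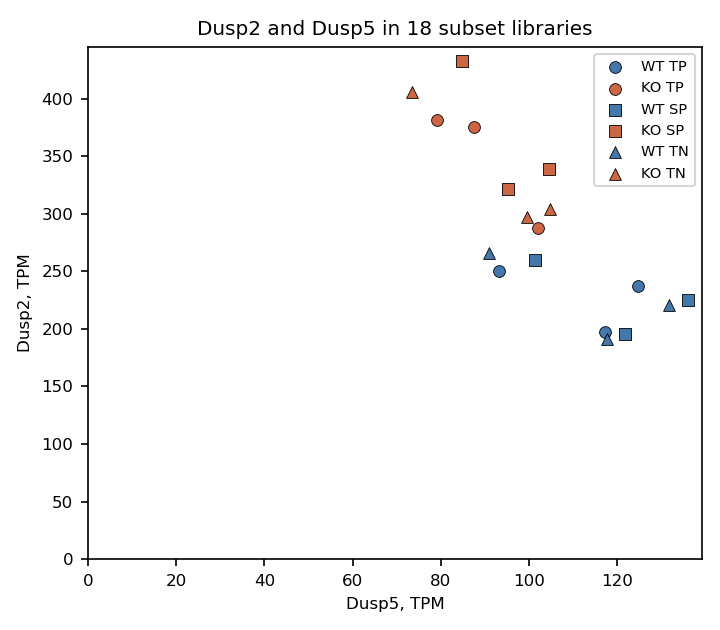
Dusp2 against Dusp5 in TPM, both axes from 0, in the 18 subset libraries; colour gives the genotype and shape the subset. Within KO (orange) and within WT (blue), libraries with more Dusp5 had less Dusp2.

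For the other members, the KO minus WT differences lay between -0.41 and 0.46 and none passed. Dusp6 differed by 0.12, 0.01 and -0.35 in TP, SP and TN cells, and Dusp10 by -0.34, 0.35 and -0.41. Spred1 was at 7.00, 7.28 and 6.85 TPM in KO TN cells and at 5.58, 5.48 and 5.41 TPM in WT TN cells, without overlap, but with a difference of 0.31 at an adjusted p of 0.82. In all, limma called 0 of 7 members in TP cells (1.59% of all tested genes were called), 0 in SP cells (1.35%) and 0 in TN cells (0.716%). At an unadjusted p under 0.05 there were 3, 1 and 1 of the 7 members, against 11.8%, 11.7% and 10.5% of all tested genes. KO and WT libraries did not overlap for 3 of 7 members in TP cells, 1 in SP cells and 3 in TN cells, against 18.3%, 18.9% and 13.7% of all tested genes. The median member difference was 0.29, 0.16 and -0.22 in TP, SP and TN cells, against 0.04, 0.03 and 0.02 over all genes.

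Among other genes of the pathway, Dusp22, which encodes an atypical dual-specificity phosphatase that acts in JNK signalling, fell in KO cells of 2 subsets. TP cells of KO mice held 8.82, 9.55 and 6.26 TPM and those of WT mice 24.1, 20.3 and 23.8 TPM, a difference of -1.38 (adjusted p 0.00751). In SP cells it was at 8.31, 16.1 and 10.9 TPM in KO and 38.9, 25.6 and 30.1 TPM in WT, a difference of -1.37 (adjusted p 0.00804). In TN cells it was at 13.6, 16.4 and 17.2 TPM in KO and 29.7, 34.5 and 20.0 TPM in WT, again without overlap, and did not pass (difference -0.77, adjusted p 0.249). It was the 1 called gene of the 8 tested in a list of other phosphatase, Sprouty and Spred genes. Among 11 tested ERK-response genes, the transcription factor genes Egr1 (-2.33, adjusted p 0.00201) and Egr3 (-1.93, adjusted p 0.0304) were lower in KO SP cells, and none passed in TP or TN cells. None of 20 ERK-cascade genes and none of 12 tested JNK and p38 cascade genes passed in any subset. In KO cells the direction of Dusp22 and of both Egr genes in SP cells was opposite to that of Dusp2.

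Next, subsets were compared within each genotype, which asks whether expression varies with the receptors for self MHC class I. Spry2, an inhibitor of receptor signalling to ERK, rose in WT TN cells. It was at 169, 166 and 178 TPM in WT TN and at 119, 107 and 112 TPM in WT TP cells, with WT SP cells between at 142, 117 and 145 TPM. All WT TN libraries lay above all WT TP and SP libraries. The TN minus TP difference was 0.60 (SE 0.13, adjusted p 0.0322), a 1.51-fold difference, and Spry2 was the 1 member of 7 called, where 1.31% of all tested genes were. The call was lost without a filter on low values (adjusted p 0.0513), without a variance trend (0.0773), with only the compared groups in the fit (0.0944) and in each of the 6 fits that left out 1 library (0.0633 to 0.129). The differences in those fits were 0.56 to 0.64. NK marker genes moved too: their sum was 17887 to 18581 TPM in WT TN and 20307 to 21417 TPM in WT TP cells. Of the 8 marker genes tested, limma called 3 lower and 1 higher in WT TN cells. The 1 called higher was Eomes, an NK transcription factor gene, which rose by 0.73 (adjusted p 4.82e-05).

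In KO cells Spry2 was at 143, 133 and 164 TPM in TN and 134, 127 and 153 TPM in TP cells, and these overlapped (difference 0.09, adjusted p 1). KO TP cells lay above WT TP cells in every library (difference 0.29, adjusted p 0.406) and KO TN cells below WT TN cells in every library (-0.22, adjusted p 0.583). The TN minus TP difference in KO was 0.51 lower than in WT, with an unadjusted p of 0.0144 and an adjusted p of 0.701. A difference between the genotypes was therefore not called.

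Dusp1 had its lowest WT mean in TP cells, at 4.51 TPM, and its highest KO mean in TP cells, at 14.1 TPM, without a call between subsets. WT SP cells lay above WT TP cells in every library (difference 0.92, adjusted p 0.576), and KO TN cells lay below KO TP cells in every library (-0.89, adjusted p 0.702). The TN minus TP difference was 0.53 in WT and -0.89 in KO cells, and their difference of -1.42 had an unadjusted p of 0.016 and an adjusted p of 0.717. The KO TP libraries with other blood cell transcripts enter both KO values. These comparisons share groups with each other and with those of KO against WT, so a high or low WT TP or KO TP group moves several of them.

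Outside Spry2, no member was called between TN or SP cells and TP cells of a genotype; TN against SP was not tested here. Limma called 0 of 7 in WT SP against TP (0.191% of all tested genes were called), 0 in KO TN against TP (0.524%), 0 in KO SP against TP (0.200%) and 0 for the difference of TN against TP between genotypes (0.0250%). At an unadjusted p under 0.05 these were 1, 1, 0 and 2 of the 7 members, against 7.71%, 6.43%, 2.93% and 6.27% of all tested genes. Groups did not overlap for 1 of 7 members in WT TN against TP, 1 in WT SP against TP and 1 in KO TN against TP, against 14.6%, 10.6% and 13.2% of all tested genes. Dusp2 levels were close across subsets, with means of 228, 227 and 226 TPM in WT TP, SP and TN cells. Its TN minus TP difference was -0.02 in WT cells (95% interval -0.37 to 0.33) and -0.05 in KO cells (-0.40 to 0.29). Dusp5, Dusp6, Dusp10 and Spred1 differed by -0.53 to 0.26 in TN or SP cells from TP cells of the same genotype. Of the pathway lists, the ERK-response gene Myc rose in WT TN cells (0.76, adjusted p 0.0389), and no other listed ERK-cascade, JNK and p38, feedback or response gene passed in these subset comparisons.

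By likeness over the 18 subset libraries, the gene whose log2 level ran closest to that of Dusp2 was Txnip (Pearson r 0.89), followed by Rab27a (0.89) and Zfp36l2 (0.87). For Spry2 they were Eomes (0.84), Klrk1 (0.80), which encodes NKG2D, and Ctla2b (0.79). For Dusp1 they were Idnk (0.86), Nfil3 (0.78) and Zgpat (0.77), and for Dusp5 Tbc1d10a (0.85), Zfp937 (0.81) and Zfp831 (0.77). Dusp6 ran closest to Ralgps1 (0.81), Dusp10 to Gatb (0.83) and Spred1 to Phf20l1 (0.81). Each named gene is among the 3 highest of 9296 genes for its member. The libraries share genotype, sort and possibly mouse, so the values only describe these libraries.

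Ionomycin, which lets calcium into cells, was compared with vehicle after 22 h. Whole splenocytes were exposed, so direct effects on NK cells and effects through other spleen cells cannot be told apart. Spry1, a Sprouty gene listed at 0 in every subset and antibody library, was at 137, 72.2 and 84.1 TPM in the 3 ionomycin libraries and at 0 in the 3 vehicle libraries. It was the 1 member of 8 called (adjusted p 4.70e-04), where 2.91% of the tested genes were. Since vehicle is listed at 0, no fold is given, and a gene at 0 in vehicle that reached the mean needed for a test had to be higher with ionomycin. The call was kept in all 13 alternative settings, at adjusted p from 4.80e-04 to 0.0224 in limma. Vehicle is at 0 in each of them, so they add nothing on the direction. By whole gene span, Spry1 overlaps Gm42922, annotated on the opposite strand (GENCODE M21). Reads from any stretch that both genes transcribe cannot be told apart here, and shared exons were not looked for. The spans of Dusp5 and AC137853.2, and of Dusp10 and 1700056E22Rik, overlap in the same way.

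The other members that stood higher with ionomycin did not pass. Dusp2 was at 585, 825 and 643 TPM with ionomycin and at 95.9, 234 and 427 TPM with vehicle, without overlap, and with a wide spread in the vehicle group. The difference was 1.67 (95% interval 0.60 to 2.73, adjusted p 0.116). Vehicle replicate 3, the vehicle library with the most Dusp2, also had 349 TPM of summed neutrophil genes, against 0 and 2.19 TPM in the other vehicle libraries. Among the ionomycin libraries that sum was 119 TPM in replicate 3, and 0 and 0.70 TPM in the others. The NK marker genes of vehicle replicate 3 summed to 7557 TPM, against 13995 and 13646 TPM. Without vehicle replicate 3 the Dusp2 difference was 2.17 and was called (adjusted p 0.016), and without ionomycin replicate 3 it was 1.70 and was not (adjusted p 0.33). Without vehicle replicate 1, the vehicle library with the least Dusp2, it was 1.10 and was not called (adjusted p 0.0753). Of 13 alternative settings, 1 gave a call for Dusp2. Spry2 was at 332, 371 and 314 TPM with ionomycin and at 119, 231 and 186 TPM with vehicle, also without overlap. Its difference of 0.97 (0.37 to 1.57) had an adjusted p of 0.105 and was called under quantile normalization only (1.06, adjusted p 0.0483). Dusp1 was at 87.5, 98.2 and 59.4 TPM with ionomycin against 20.0, 65.3 and 38.6 TPM with vehicle, which overlapped (difference 1.09, adjusted p 0.274).

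The other tested members had differences nearer 0, with intervals that span it. Dusp5 was at 318, 332 and 308 TPM with ionomycin and 271, 345 and 279 TPM with vehicle (difference 0.11, 95% interval -0.32 to 0.53). Dusp6 differed by -0.35 (-1.17 to 0.47), Dusp10 by -0.08 (-1.01 to 0.84) and Spred1 by -0.29 (-1.56 to 0.99). Leaving out Spry1, whose place the filter fixed, groups did not overlap for 2 of 7 members, against 20.1% of the tested genes, and 3 of 7 had an unadjusted p under 0.05, against 15.1%. The median difference over those 7 members was 0.11, against -0.00 over all genes. Of 12 tested ERK-response genes, Egr1 fell (-1.43, adjusted p 0.03), from 134, 122 and 202 TPM to 61.6, 45.1 and 59.0 TPM, and none rose. No listed gene of the ERK cascade, the JNK and p38 cascades or the other feedback genes passed. The NK marker list summed to 5616 to 7206 TPM with ionomycin, and Ncr1 fell by 2.64 (adjusted p 0.0045). The part of that change in the members' values was not tested.

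**Figure D4:**
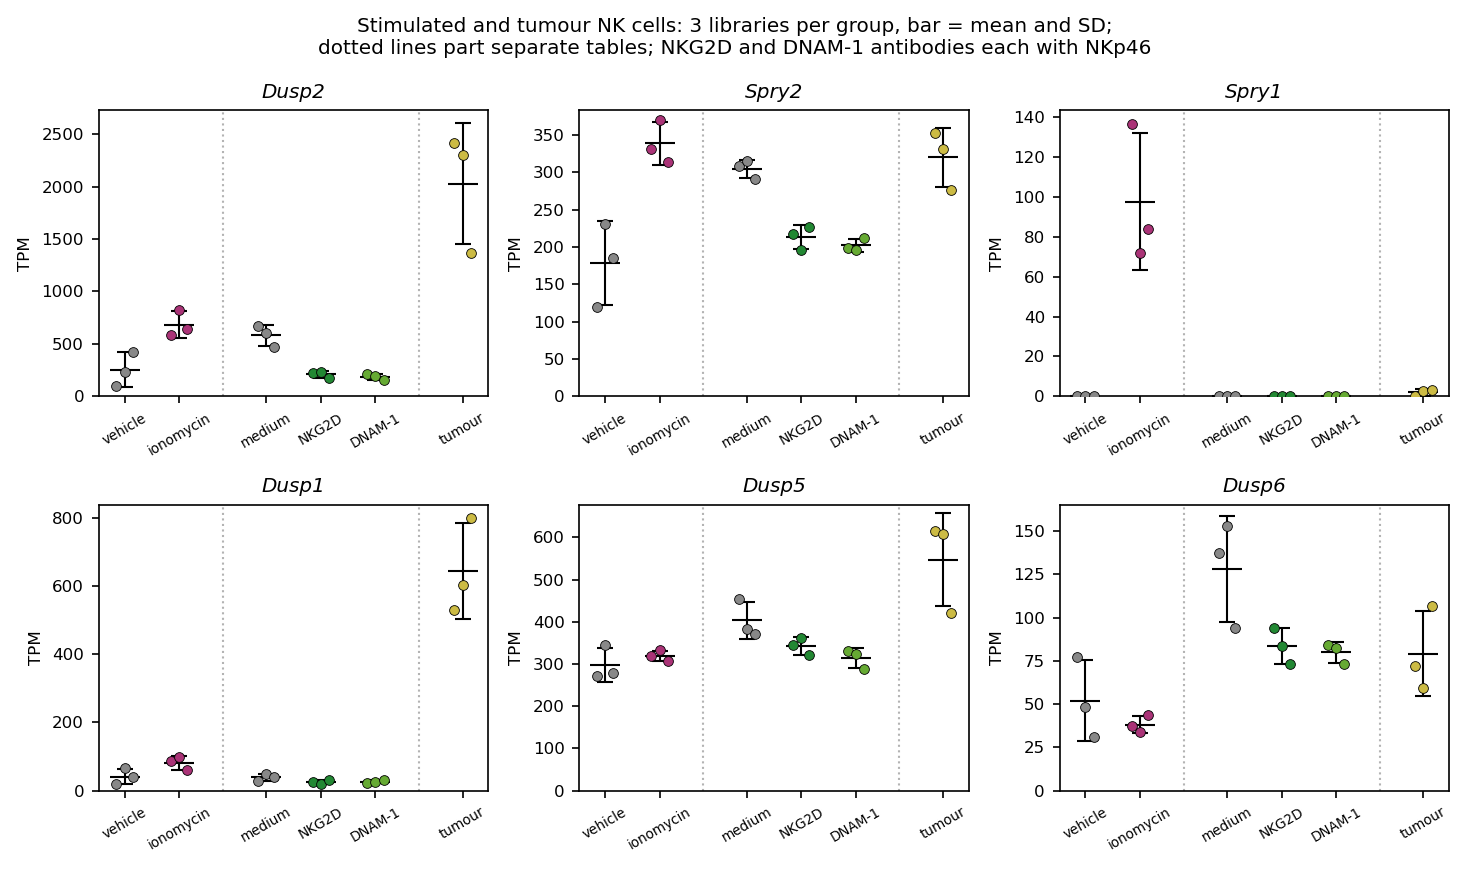
TPM of 6 members in the ionomycin, antibody and tumour libraries; each point is a library, bars give the mean and SD of 3, the axes start at 0 and dotted lines part tables that may not be compared. Spry1 is above 100 TPM in 1 ionomycin library and at 0 with vehicle, and Dusp2 in medium lies above both antibody groups.

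The antibody comparison asks what 48 h of engagement of NKp46 together with NKG2D or DNAM-1 does to the cells. Dusp2 fell with both antibody pairs, and Spry2 fell with NKp46 and DNAM-1. Dusp2 was at 669, 605 and 468 TPM in medium, at 223, 236 and 171 TPM with NKp46 and NKG2D, and at 209.8, 190.1 and 155 TPM with NKp46 and DNAM-1. Every medium library lay above every antibody library, and the antibody pairs overlapped each other. The difference from medium was -1.46 (SE 0.17, adjusted p 0.00395) with NKG2D and -1.64 (SE 0.17, adjusted p 0.00209) with DNAM-1, or 0.363-fold and 0.321-fold. Both calls held in 14 of 15 alternative settings. They were lost when samples were grouped by title (-0.07 and -0.44, adjusted p 1 and 0.815), the grouping that disagrees with the columns.

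Spry2 was at 308, 315 and 292 TPM in medium, 218, 195 and 227 TPM with NKp46 and NKG2D, and 198, 196 and 212 TPM with NKp46 and DNAM-1. Every antibody library lay below every medium library. With DNAM-1 the difference was -0.59 (SE 0.09, adjusted p 0.0231), and with NKG2D it was -0.52 (SE 0.09, adjusted p 0.0534). The DNAM-1 call was lost with median-of-ratios rescaling (adjusted p 0.0503), without a variance trend (0.116), with only the compared groups (0.0744), without medium replicate 2 (0.0528) and without any 1 of the 3 DNAM-1 libraries (0.0784 to 0.128). Grouped by title, its sign turned (0.02, adjusted p 0.979). The NKG2D difference passed in 4 of 15 alternative settings. These were replicate number as a block (0.0349), leaving out medium replicate 3 (0.0364), a pseudocount of 0.1 (0.0457) and a mean of at least 5 TPM (0.0497).

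Dusp6 was at 138, 153 and 94.0 TPM in medium, 94.2, 83.8 and 73.4 TPM with NKG2D and 84.1, 82.6 and 73.2 TPM with DNAM-1. Its differences of -0.59 and -0.65 had adjusted p of 0.194 and 0.126. Without medium replicate 3, the medium library with the least Dusp6, both were called (-0.79, adjusted p 0.0358, and -0.85, adjusted p 0.0243), and with the block the DNAM-1 difference was (0.0389). Dusp5 was at 454, 384 and 371 TPM in medium, 344, 363 and 320.4 TPM with NKG2D and 330.3, 324 and 287 TPM with DNAM-1. Its medium libraries lay above all antibody libraries, with differences of -0.23 and -0.36 that did not pass (adjusted p 0.335 and 0.135).

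The remaining tested members showed smaller or mixed differences. Dusp1 differed by -0.60 and -0.54 from medium with NKG2D and DNAM-1, at an adjusted p of 0.257 for both. Spred1 differed by -0.12 and -0.34. Dusp10 was the 1 member above medium, by 0.36 and 0.21, with 95% intervals that span 0 (-0.47 to 1.19 and -0.62 to 1.04). Dusp4 stayed at or under 0.50 TPM in all 9 libraries and Spry1 at 0.

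**Figure D5:**
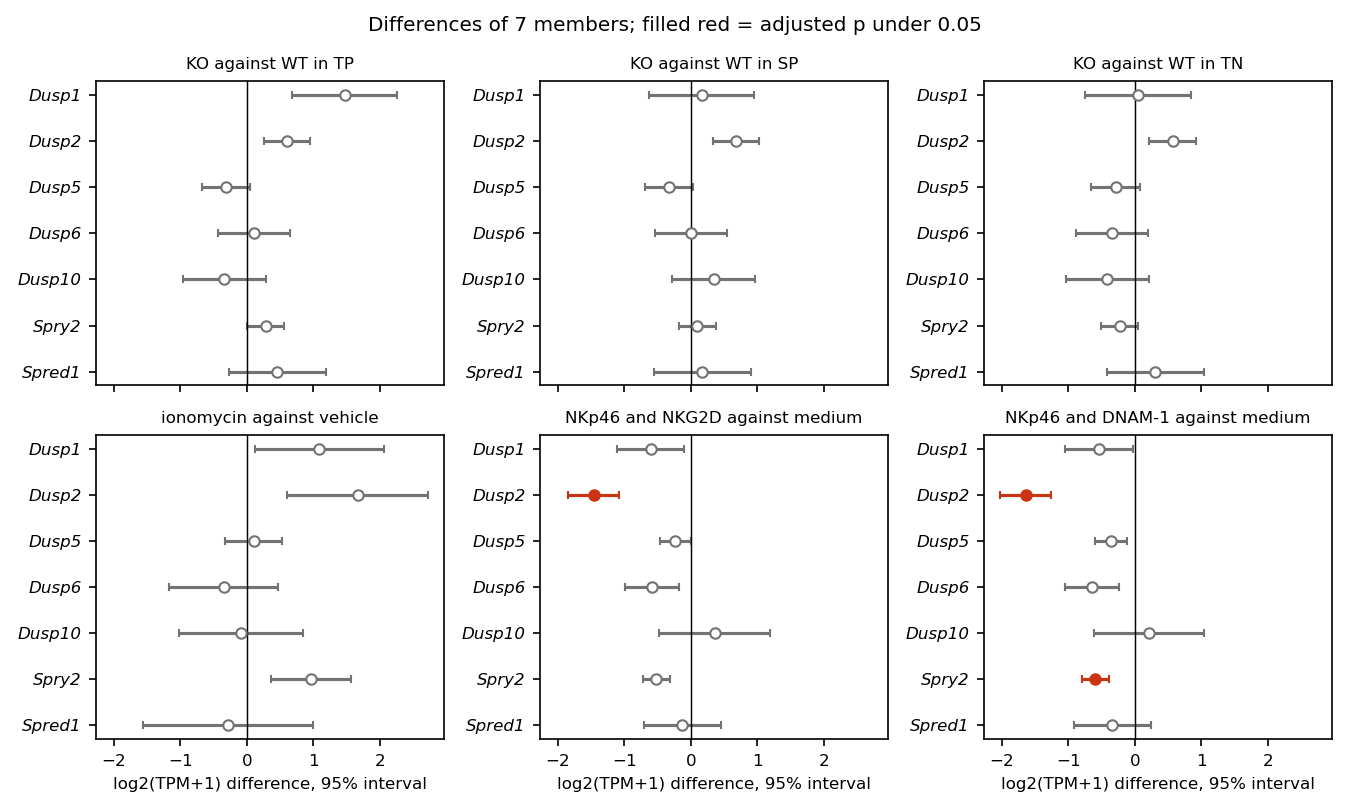
Differences in log2(TPM + 1) with 95% intervals for 7 members in 6 comparisons; the vertical line marks 0, and filled red points are those with an adjusted p under 0.05 in limma. Dusp2 is filled in both antibody panels and Spry2 in the DNAM-1 panel, and Dusp2 lies to the right of 0 in the 3 KO panels.

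Counted over the members, 1 of 7 was called with NKG2D, where 0.431% of the tested genes were called and 0.278% were called lower. With DNAM-1, 2 of 7 were called, both lower, where 0.782% of the tested genes were called and 0.497% were called lower. Groups did not overlap for 3 and 4 of the 7 members, against 17.3% and 21.1% of the tested genes. The median member difference was -0.52 and -0.54, against -0.04 and -0.04 over all genes. Both comparisons use the same medium libraries, so they are not independent. Between the antibody pairs themselves limma called 0 of 7 members (0.0146% of the tested genes were called), with 0 members at an unadjusted p under 0.05, against 1.22% of the tested genes. The DNAM-1 minus NKG2D difference was -0.18 for Dusp2 (95% interval -0.56 to 0.21) and -0.08 for Spry2 (-0.28 to 0.13).

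ERK-response genes were lower with antibodies too. Of 13 tested, 6 fell with NKG2D and 6 with DNAM-1, and none rose. Egr1 changed by -2.64 with NKG2D (adjusted p 4.72e-04) and by -2.63 with DNAM-1 (adjusted p 5.19e-04), from 2312, 1692 and 1504 TPM in medium to between 234 and 329 TPM. Fos, an AP-1 subunit gene, changed by -2.64 and -2.34, and Egr2 by -2.59 and -2.58. None of 20 ERK-cascade, 13 JNK and p38 cascade and 8 other feedback genes passed with either pair. The handling and stress list, which shares Fos, Fosb, Junb and Ier2 with the response list, summed to 1107 to 1776 TPM in medium and to 397 to 485 TPM with antibodies. The part of handling in the members' values was not tested.

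Tumour NK cells had no matched group in their table, so their values are given without a comparison, and the tables were scaled separately. Dusp2 was at 2415, 2306 and 1372 TPM, Dusp1 at 530.1, 604 and 800.5 TPM, and Dusp5 at 614, 608 and 420.5 TPM. Dusp2 was above Dusp1 in all 3 libraries, and Dusp1 and Dusp5 overlapped. Spry2 was at 353, 332 and 276 TPM, Dusp6 at 71.9, 59.4 and 107 TPM, Dusp10 at 27.8, 17.2 and 36.5 TPM and Spred1 at 10.5, 11.2 and 12.1 TPM. Dusp4 was at 7.21, 7.45 and 12.6 TPM. Spry1 was at 0, 2.79 and 2.97 TPM. The handling and stress list summed to 5247, 5420 and 10700 TPM in the tumour libraries. Of these, the library with the highest sum had the most Dusp1, Dusp6, Dusp10, Spred1, Dusp4 and Spry1 and the least Dusp2, Dusp5 and Spry2. Stromal marker genes summed to 129 to 1027 TPM and 6 neutrophil genes to 19.4 to 27.6 TPM there, all of it from Mpo. The part of other cells and of handling in these levels was not tested.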

How the data were processed

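Per the submitters' processing notes, STAR, RSEM and the build GRCm39 were used; versions, roles, annotation and strand setting are not given in the sources used here. The authors deposited TPM values in 4 tables, per the file headers, with no counts, so depth is unknown and precision rests on 3 libraries per group. Per the labels' protocols, total RNA with an integrity score above 7 went into a poly(A) library kit. From these TPM values, log2(TPM + 1) was computed for genes whose mean reached 1 TPM, and limma 3.58.1 (R 4.3.3) fitted all groups of a table with a variance trend, two-sided, with Benjamini-Hochberg adjustment over all genes of each of 12 comparisons. Called means an adjusted p under 0.05. With 3 against 3 libraries, an exact permutation test cannot go below 0.1. Antibody groups came from column names. The code was tested on simulated data.

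The members and lists were chosen with earlier results of these data known. Text names all 9 members, up to 3 called genes per direction of 4 pathway lists, and for likeness the genes with the highest Pearson r among those with a mean of at least 5 TPM, leaving out predicted genes. Replicate numbers were read as mice from the column names. The main fits did not use these numbers, and the replicate block, run as an alternative, did. Deviations from group means of same-numbered libraries correlated at 0.01 on average in the subset table (other pairs -0.005) and 0.064 in the antibody table (other pairs -0.032), and 0 of 18 and 1 of 9 pairs were over 0.1. Deviations within a group of 3 libraries sum to 0, so the values of other pairs follow from those of same-numbered pairs and are no separate check. Each table has 1 batch label, so no comparison crosses a label. The label does not show whether the groups or replicates of a table were sorted together. Alternatives changed the pseudocount, filter, scaling, trend, samples, block and antibody grouping. Motifs were searched in RefSeq sequences of GRCm38.p6, and no coordinates were converted.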

Additional observations from a re-analysis of the deposited data

Results flagged for a closer look

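Spry2 in sorted subsets stood apart because KO libraries all lay above WT libraries in TP cells and all below them in TN cells. The KO minus WT difference in log2(TPM + 1) was 0.29 in TP cells, with 127 to 153 TPM against 107 to 119 TPM, and -0.22 in TN cells, with 133 to 164 TPM against 166 to 178 TPM. The test of this difference is the genotype term of TN against TP, at -0.51 with an unadjusted p of 0.0144 and an adjusted p of 0.701 in limma, so it was not called.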

How the results depend on the processing

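Each member's difference was recomputed under 13 to 20 alternatives per comparison. Of 1245 values, 1214 kept their call, and 82 had another sign while called in neither fit (71 of them from leaving out 1 library; the largest was 0.34 in size). For WT TN against TP the count of called members, 1, was 0 without a filter, without a trend and with only the compared groups. For KO against WT in SP it was 0, and 1 with a pseudocount of 0.1, with a mean of at least 5 TPM and with the replicate block. For ionomycin it was 1 (Spry1, whose direction its 0 values in vehicle fixed), and 2 under quantile normalization. With NKp46 and NKG2D it was 1, and 2 with a pseudocount of 0.1, a mean of at least 5 TPM and the replicate block. With NKp46 and DNAM-1 it was 2, and 1 with median-of-ratios rescaling, without a trend and with only the compared groups, and 3 with the replicate block, which added Dusp6. Titles as groups gave 0 for both antibody pairs and turned Spry2 with DNAM-1 to 0.024. Leaving out 1 library gave 0 called members in all 6 fits for WT TN against TP, 1 to 2 for ionomycin, 1 to 3 for NKG2D, 1 to 3 for DNAM-1, and 0 in the other comparisons. The replicate block changed no other count by over 1.5 times among the members; in the ionomycin table, where numbers share no stated origin (mean correlation of same-numbered libraries 0.062), it changed no member's call.

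Counts over all genes varied more: 157 called genes of WT TN against TP became 43 to 170, 23 of SP against TP 12 to 27, 63 and 24 in KO cells 41 to 82 and 16 to 41, and the 3 of the interaction 0 to 10. KO against WT moved from 191, 162 and 86 in TP, SP and TN to 91 to 195, 84 to 178 and 32 to 114, ionomycin from 418 to 43 to 712, the antibody pairs from 59 and 107 to 0 to 311 and 1 to 604, and their direct comparison from 2 to 0 to 4. The block alone gave 239 and 528 for the antibody pairs. In KO against WT in TP, 61.8% of called genes were higher, and 50.3% after median-of-ratios rescaling; with DNAM-1 the share was 36.4%, and 46.4% after quantile normalization. Within the subset table, the mean within-group CV was 34.7%, 23.8% and 25.2% for Dusp1, Dusp10 and Spred1, against 10.3% for Spry2.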
